A study of Saccharomyces cerevisiae S288C with 6 samples.

Results

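The genes described here are 9 Saccharomyces cerevisiae genes of sterol regulation, sterol uptake and sterol ester turnover: UPC2, ECM22, SUT1, AUS1, ARE1, ARE2, YEH1, YEH2 and TGL1. They were chosen by name, with earlier results of these data known, and matched through the platform annotation. They are 9 of the 5449 yeast genes with a probe set. Each was read by a single probe set specific to it, and all 9 lay above the background level on all 6 arrays. Transcript levels were measured in S288C, the standard laboratory strain of budding yeast, a haploid of alpha mating type, grown in buffered synthetic glucose medium at pH 7.0. Treated cultures received PFA (plakortide F acid, an endoperoxide of sponge origin with antifungal activity) at its IC50 of 0.62 ug/ml, and control cultures received the solvent, 0.25% DMSO. Treatment began at an optical density of 0.2 and cells were collected at 0.5. The sources used here state neither the time this took in each group nor the DMSO content of the treated cultures, so compound, solvent and time cannot be told apart in the differences below.

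Each group held 3 biological replicates on an array each, and precision is limited by the number of arrays, 6. The authors' values are scaled signal intensities on a linear scale, with a trimmed mean of 1001 on each array. The background level, a signal of 20.01, is the 95th percentile of mean log2 signal over probe sets that the annotation gives to another organism. As a sign of RNA quality, the 3' to 5' ratio of the ACT1 control probe sets ran from 1.20 to 1.28 on DMSO arrays and from 1.19 to 1.25 on PFA arrays. On the DMSO arrays the 4 alpha-cell markers MF(ALPHA)1, MF(ALPHA)2, STE3 and SAG1 read 6580 to 18521, and 6 markers of the opposite mating type read 65.6 to 659. Both sets moved with the treatment: all 4 alpha-cell markers fell, their summed signal being 46693 to 48777 on DMSO arrays and 15660 to 16631 on PFA arrays, and 4 of the 6 a-cell markers fell, 1 rose and 1 was not called, with sums of 1547 to 1583 and 454 to 543. The largest of these falls was that of MF(ALPHA)2, to between 84.1 and 109 on PFA arrays, and a part of the mating-type genes in the results below was not tested. S288C carries a Ty1 insertion in HAP1, the gene of a heme-responsive activator of sterol and respiratory genes, which limits it as a model of oxygen and sterol regulation. As these are whole cultures, fewer cells that express a gene and less RNA per cell cannot be told apart.

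Ergosterol, the main sterol of fungal membranes, is made in the endoplasmic reticulum, and cells keep its free level in balance by changing synthesis, uptake and storage. The paralogous zinc-cluster activators Upc2 and Ecm22 bind sterol response elements in front of many ergosterol genes. Upc2 itself binds ergosterol and stays in the cytosol while sterol is plentiful, then enters the nucleus when sterol runs low. Surplus sterol is joined to a fatty acid by the acyltransferases Are1 and Are2 and stored in lipid droplets, from which the hydrolases Yeh1, Yeh2 and Tgl1 release it again. Yeast takes up sterol from outside mainly without oxygen, through the ABC transporters Aus1 and Pdr11 and under the control of the regulator Sut1.

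Which of these genes respond to PFA at a growth-inhibiting dose was addressed by comparing the 3 PFA with the 3 DMSO arrays. UPC2, ARE2 and SUT1 rose, AUS1 fell, and the other 5 genes did not pass the test. The count of 4 of 9 genes called at a limma adjusted p under 0.05 (44.4%) stood below the 62.0% called among all 5356 genes tested, of which 30.3% were higher and 31.8% lower in PFA. The changes of UPC2, ARE2 and SUT1 were each above 2-fold. Of all genes tested, 5.88% were both called and at least 2-fold higher in PFA. The median log2 change of the 9 genes was 0.04, beside -0.02 over all genes tested, and single genes ran from -0.79 to 1.71. In 6 of the 9 genes the PFA and DMSO values did not overlap, against 66.6% of all genes tested.

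**Figure D1:**
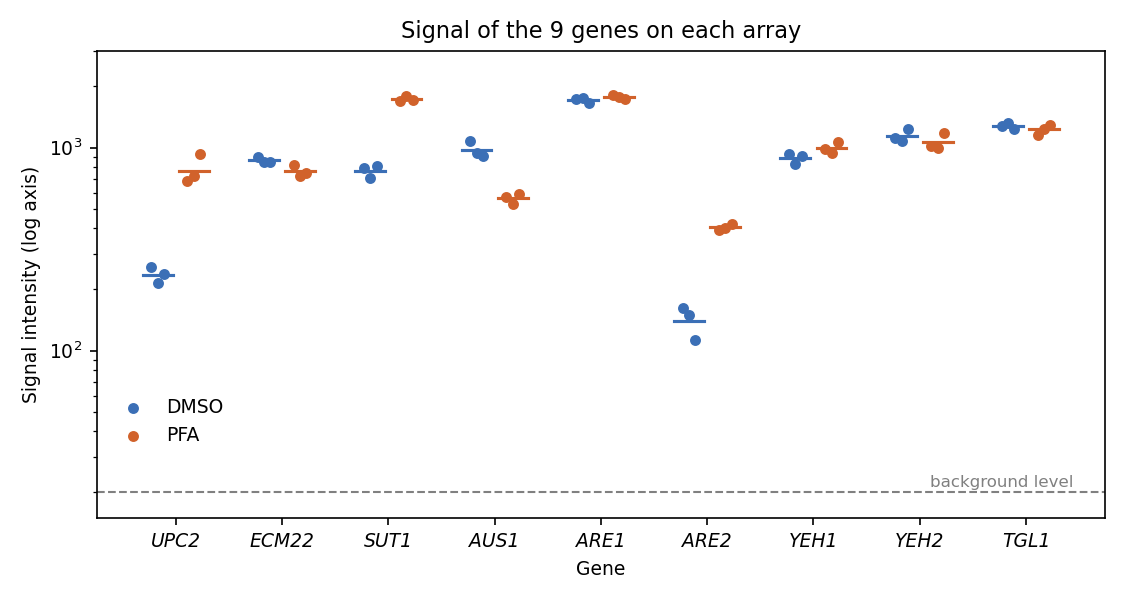
Signal intensity (log axis) of the 9 genes on each array, with 1 point per array (DMSO blue, PFA orange), a bar at the geometric mean of each group and a dashed line at the background level of 20.01. UPC2, SUT1 and ARE2 sit higher and AUS1 lower on all 3 PFA arrays, and since probe sets differ in brightness, heights can be compared within a gene only.

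Among the regulators, UPC2 (YDR213W) had signals of 257, 215 and 238 on the DMSO arrays and 682, 723 and 927 on the PFA arrays. The lowest PFA value was well above the highest DMSO value, and PFA replicate 3 was the highest of its group. The DMSO mean was 236.8 ± 21.4 and the PFA mean 777.5 ± 131.0 (SD, n = 3), a 3.26-fold rise with a 95% confidence interval of 2.71 to 3.93 (limma adjusted p = 1.54e-07). Of all genes tested, 108 had a larger rise.

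ECM22 (YLR228C), the paralog of UPC2, read 899, 854 and 848 in DMSO and 825, 726 and 748 in PFA. Every PFA value lay below every DMSO value, but by little. The log2 difference was -0.18 ± 0.08 (SE), with a 95% interval of -0.36 to -0.001 before adjustment and a limma adjusted p of 0.0748. This gene stood near the threshold: the adjusted p was 0.0185 after centring each array on its median, 0.0205 after quantile normalization and 0.0495 without PFA replicate 1, and ran from 0.0185 to 0.222 over 15 alternatives.

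The rise of UPC2 was set directly against ECM22 through the log2 ratio of the pair on each array, in which probe brightness cancels once the groups are compared. Between DMSO and PFA the ratio rose by 1.89 ± 0.18 on the log2 scale (SE, n = 3 per group), that is 3.69-fold. The 3 DMSO ratios did not overlap the 3 PFA ratios. A two-sided exact permutation test gave p = 0.1, the smallest value that 3 against 3 arrays allow, and 0.1 after adjustment over the 3 paralog pairs compared.

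SUT1 (YGL162W), which encodes a zinc-cluster regulator that promotes sterol uptake in the absence of oxygen, had signals of 797, 708 and 812 in DMSO and 1700, 1789 and 1723 in PFA. The groups lay far apart, and the PFA arrays differed among themselves by less than the DMSO arrays, with an SD of 2.65% against 7.27% of the mean. The rise was 2.25-fold, with a 95% interval of 1.99 to 2.55 (limma adjusted p = 1.09e-07). SUT2 (YPR009W), the closest relative of SUT1, read 876, 803 and 832 in DMSO and 837, 810 and 797 in PFA, with overlapping groups. Its log2 difference of -0.04 had a 95% interval of -0.21 to 0.13 (limma adjusted p = 0.682).

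Unlike SUT1, the genes of the sterol uptake transporters were lower in PFA. AUS1 (YOR011W), encoding the plasma membrane ABC transporter for sterol, had signals of 1082, 941 and 912 in DMSO and 574, 528 and 588 in PFA. All PFA values were below all DMSO values. Mean signal went from 978.2 ± 91.0 to 563.2 ± 31.4 (SD, n = 3), a level 1.73-fold lower in PFA (limma adjusted p = 9.7e-06). PDR11 (YIL013C), the related transporter that shares this role, read 280, 240 and 276 in DMSO and 176, 182 and 188 in PFA. It too was lower on every PFA array, by 1.46-fold (limma adjusted p = 0.00141).

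**Figure D2:**
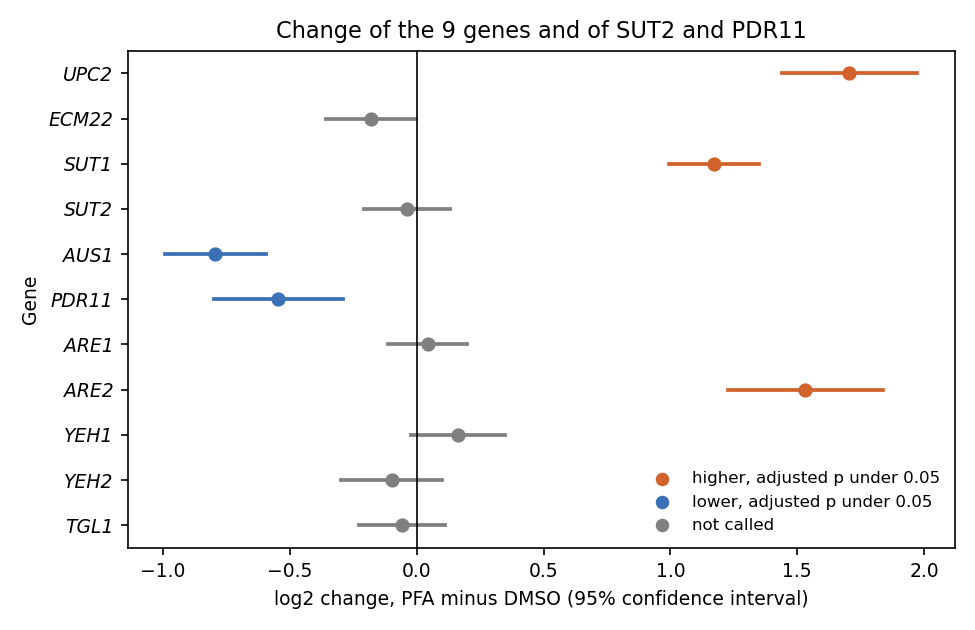
The log2 change (PFA minus DMSO) of the 9 genes and of SUT2 and PDR11, with 95% confidence intervals from limma before adjustment, coloured by the call at an adjusted p under 0.05. UPC2, SUT1 and ARE2 lie above 1, AUS1 and PDR11 below 0, and ECM22 ends just short of 0 without passing the adjusted test.

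Of the sterol acyltransferase genes, ARE2 rose and ARE1 was not called. ARE2 (YNR019W), which encodes the main sterol esterifying enzyme of aerobic cells, read 163, 150 and 113 in DMSO and 394, 402 and 419 in PFA. DMSO replicate 3 was the lowest of its group, and the DMSO signals had an SD of 18.3% of their mean, the widest among the 9 genes. ARE2 rose 2.89-fold, with a 95% interval of 2.34 to 3.57 (limma adjusted p = 1.36e-06), and 138 genes had a larger rise.

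ARE1 (YCR048W), the paralog that gains in weight when oxygen or heme is short, read 1745, 1756 and 1663 in DMSO and 1808, 1779 and 1734 in PFA. These groups overlapped. The log2 difference was 0.04, with a 95% interval of -0.11 to 0.20 (limma adjusted p = 0.622), so a change of more than 1.15-fold upward lay outside the interval. The log2 ratio of ARE1 to ARE2 on each array fell by 1.49 ± 0.14 (SE, n = 3 per group), with groups that did not overlap (exact permutation p = 0.1, adjusted p = 0.1, the smallest possible).

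None of the 3 sterol ester hydrolase genes passed the test. YEH1 (YLL012W), whose product sits on lipid droplets, read 927, 830 and 913 in DMSO and 985, 938 and 1068 in PFA. The PFA arrays were all higher, the nearest values being 927 and 938, and the log2 difference of 0.16 had a 95% interval of -0.02 to 0.35 (limma adjusted p = 0.112). YEH2 (YLR020C), whose product sits at the plasma membrane, read 1110, 1079 and 1229 in DMSO and 1015, 996 and 1184 in PFA.

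The YEH2 groups overlapped, with a log2 difference of -0.10 and a 95% interval of -0.30 to 0.10 (limma adjusted p = 0.366). For the pair, the log2 ratio of YEH1 to YEH2 rose by 0.26 ± 0.06 (SE, n = 3 per group), with groups that did not overlap (exact permutation p = 0.1, adjusted p = 0.1, the smallest possible). TGL1 (YKL140W), the third hydrolase gene, read 1283, 1320 and 1236 in DMSO and 1160, 1236 and 1292 in PFA, with overlapping groups and a log2 difference of -0.06, 95% interval -0.23 to 0.11 (limma adjusted p = 0.534). The intervals of the 3 hydrolase genes reached from 0.813-fold (YEH2) to 1.27-fold (YEH1), whereas that of ARE2 began at 2.34-fold. The interval of ARE1, 0.924-fold to 1.15-fold, lay within the hydrolase range.

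**Figure D3:**
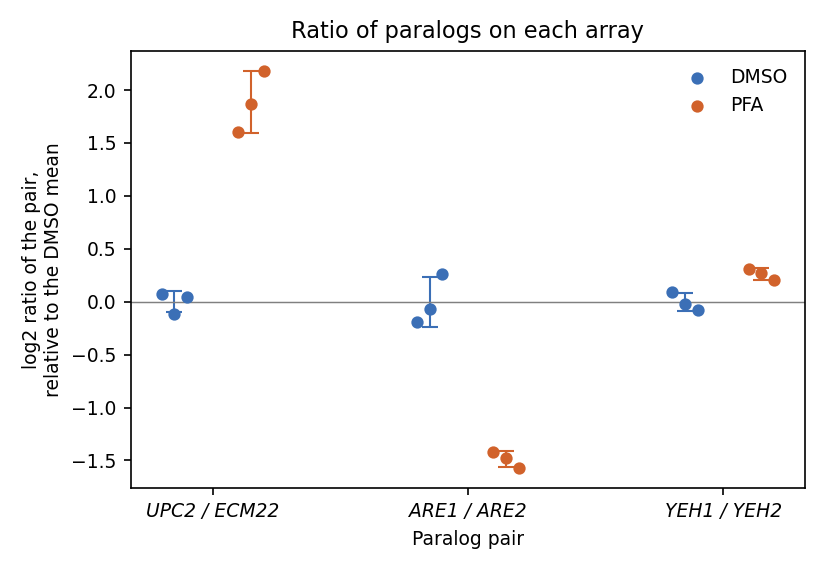
The log2 ratio of each paralog pair on each array, set to 0 at the DMSO mean, with points for single arrays (DMSO blue, PFA orange) and bars for mean ± SD, n = 3. The UPC2 to ECM22 ratio rose by 1.89, the ARE1 to ARE2 ratio fell by 1.49 and the YEH1 to YEH2 ratio rose by 0.26, and in no pair did the groups overlap.

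The enzymes of ergosterol synthesis, many of them known targets of Upc2 and Ecm22, had log2 changes below that of UPC2. So did most genes, as only 108 of the 5356 tested had a larger rise than UPC2. Of 25 such genes 10 rose and 4 fell, while 11 were not called, with a median log2 change of 0.12 and a range from -0.46 to 0.56. The share called was 56.0%, beside 62.0% of all genes tested. The split varied with the processing. It was 7 higher and 6 lower after centring each array on its median, and 10 higher and 6 lower after quantile normalization. Without the eBayes trend it was 7 higher and 4 lower. With single arrays left out, 7 to 9 were higher and 3 to 5 lower. ERG26, encoding a dehydrogenase of sterol demethylation, rose 1.47-fold and ERG9, encoding squalene synthase, 1.4-fold. ERG24, encoding the sterol reductase that morpholine fungicides inhibit, was 1.38-fold lower, and ERG7, encoding lanosterol synthase, 1.35-fold lower. ERG11, encoding the lanosterol demethylase that azoles inhibit, had signals of 10782, 11237 and 10998 in DMSO and 10879, 10578 and 10785 in PFA. Its groups overlapped, and the log2 difference was -0.03 with a 95% interval of -0.13 to 0.07 (limma adjusted p = 0.543).

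Of 7 anaerobic genes that Upc2 is known to activate, PDR11 among them, 4 fell and 0 were called higher by limma, also at an unadjusted p under 0.05. The share called was 57.1%, beside 62.0% of all genes tested, of which 31.8% were lower in PFA. The median log2 change of the 7 genes was -0.55. TIR1, encoding a cell wall mannoprotein, read 1353, 1322 and 1216 in DMSO and 645, 671 and 424 in PFA. It was 2.28-fold lower, and its relatives TIR3 and TIR2 were 1.49-fold and 1.44-fold lower. DAN1, a further anaerobic wall gene, lay near background, at 19.6 to 48.6 on DMSO arrays and 10.8 to 32.1 on PFA arrays, and was not called (limma adjusted p = 0.319).

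Regulators linked to oxygen, heme and lipids changed in 7 of 8 cases, 5 upward and 2 downward, where 62.0% of all genes tested were called. HAP1 read 1900, 1840 and 1845 in DMSO and 4536, 4246 and 4465 in PFA, a 2.37-fold rise (limma adjusted p = 1.2e-08), although its S288C allele is the one with the Ty1 insertion. MOT3, encoding a repressor of hypoxic and ergosterol genes, rose 1.63-fold with a wide DMSO spread (378, 242 and 392). ROX1, encoding the heme-dependent repressor of hypoxic genes, rose 1.25-fold. SPT23, encoding a membrane-bound activator of the fatty acid desaturase gene, rose 1.55-fold, and TUP1, encoding a general corepressor that acts with Rox1, was 1.52-fold lower.

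Genes of sterol transfer between membranes, sterol export and sterol acetylation rose in 10 of 21 cases and fell in 4, with 7 not called and a median log2 change of 0.14. The share called, 66.7%, stood near the 62.0% of all genes tested. HES1, which encodes an oxysterol-binding protein homolog, had signals of 74.6, 92.2 and 94.4 in DMSO and 577, 597 and 502 in PFA. That was a 6.43-fold rise (limma adjusted p = 5.06e-09), against a log2 difference of -0.02 for its relative KES1, whose groups overlapped. The difference between HES1 and KES1 was not tested.

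PRY1, encoding a secreted sterol-binding protein that exports acetylated sterol, read 2978, 3509 and 3721 in DMSO and 8036, 8135 and 9370 in PFA, a 2.51-fold rise. PRY3 of the same family went the other way, with 1690, 1709 and 1606 in DMSO and 805, 930 and 819 in PFA, 1.96-fold lower. ARV1, a gene needed for normal sterol distribution, was 1.59-fold lower.

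Storage of triacylglycerol, the other neutral lipid of yeast droplets, was represented by 19 genes, of which 10 rose and 4 fell, with 5 not called (median log2 change 0.23). PLN1 (YKR046C, also known as PET10), encoding the yeast perilipin, a coat protein of lipid droplets, read 729, 594 and 644 in DMSO and 5691, 5910 and 5269 in PFA. Its rise of 8.6-fold (limma adjusted p = 3.44e-11) was exceeded by 30 genes. PAH1, encoding the phosphatidate phosphatase that makes diacylglycerol, rose 1.49-fold and NEM1, encoding the catalytic subunit of the phosphatase that activates Pah1, 1.36-fold. AYR1, encoding a droplet-associated acyl-dihydroxyacetone-phosphate reductase, was 1.36-fold lower. Of all genes tested, 62.0% were called, 30.3% higher and 31.8% lower in PFA. The share called in either direction was 56.0% for ergosterol synthesis and 57.1% for the anaerobic genes. It was 66.7% for sterol transfer and export, 73.7% for triacylglycerol and lipid droplets and 87.5% for the 8 regulators.

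**Figure D4:**
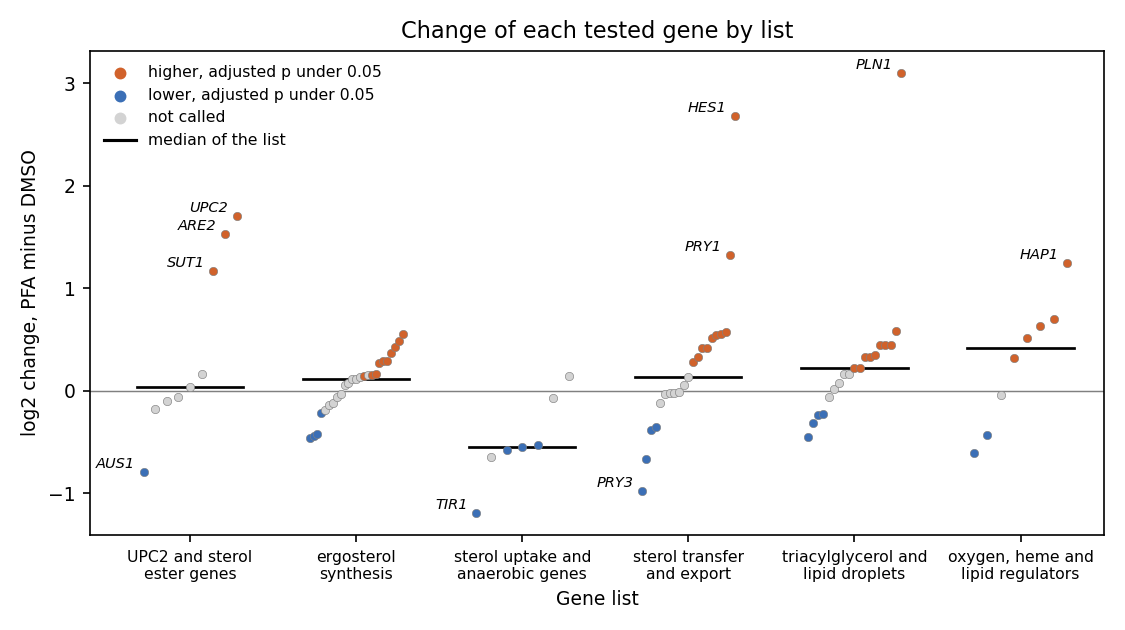
The log2 change (PFA minus DMSO) of each tested gene, grouped by list and ordered by size within a list, with colours for the call at an adjusted p under 0.05 and a black line at the list's median. UPC2, ARE2 and SUT1 stand above 1 while the 25 ergosterol synthesis genes lie between -0.46 and 0.56, and PLN1 and HES1 have the largest rises plotted.

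Genes with a pattern like that of UPC2 were sought over the 6 arrays by the root mean square difference of log2 signals, each centred on the gene's own mean, among 4904 other genes with a standard symbol. The nearest were VHS1, a protein kinase gene (0.10 log2 units), VPS36 of the endosomal sorting machinery (0.11), KTR2, a mannosyltransferase gene (0.12), YTP1 (0.12) and OCH1, the gene of the mannosyltransferase that starts outer-chain glycosylation (0.13). In all, 39 genes lay within 0.2, and none of the 5 nearest was on a list used here. The nearest gene was GUT2, encoding mitochondrial glycerol phosphate dehydrogenase, for SUT1 (0.02), BDS1 for AUS1 (0.06) and FLC1 for ARE2 (0.07). Within 0.2 lay 196 genes for SUT1, 536 for AUS1 and 38 for ARE2. With 6 arrays in 2 groups, this likeness mostly reflects a change of similar size.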

How the data were processed

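The authors deposited signal intensity values on a linear scale, 1 per probe set, from biotin-labelled RNA of 6 cultures on Affymetrix arrays. The software was GCOS 1.1 per the submitters' processing notes, and how signals were summarised and background was removed is not stated in the sources used here. The equal trimmed means show scaling by the authors, so a shift of all transcripts would not be seen.

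Of 10928 probe sets, 5498 matched a single yeast gene through the platform annotation and RefSeq's gene table. The 5356 genes whose brightest probe set had a mean log2 signal above background were tested on log2 intensity, without a pseudocount, with limma 3.58.1 in R 4.3.3 (two-sided, with a mean-variance trend in eBayes; p-values adjusted by Benjamini-Hochberg over these 5356, threshold 0.05). Folds are ratios of geometric means. Paralog ratios were compared by exact permutation. Only the limma fit was tested on simulated data, with independent noise and far fewer changed genes than were called here.

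The members and lists were chosen with earlier results of these data known. Named genes are the 9 members, SUT2, PDR11, ROX1, HAP1, MOT3, ERG11 and up to 4 called, non-overlapping genes with the largest changes per list. DAN1 and KES1 were named after their values were seen. YSP1 and LAM1, both listed, are the same gene and counted once. Replicates are those of the sample titles. No genome coordinates or sequences were used.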

Additional observations from a re-analysis of the deposited data

How the results depend on the processing

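UPC2, SUT1 and ARE2 rose and AUS1 fell under each of the 15 or 16 alternatives that tested them. Their log2 changes were 1.48 to 1.79 for UPC2, 1.11 to 1.21 for SUT1, 1.20 to 1.64 for ARE2 and -0.86 to -0.72 for AUS1. The filters, the eBayes trend, the replicate block and the choice of probe sets cannot alter these log2 changes. Only the other alternatives bear on their direction and size. The number of the 9 genes that fell went from 1 to 2 after centring on the median and after quantile normalization, and ran from 1 to 2 when single arrays were left out, in each case through ECM22 (log2 -0.24, -0.24 and, without PFA replicate 1, -0.23). A stricter filter, a mean signal above the yeast median, left 4 of the 9 genes, SUT1, ARE1, YEH2 and TGL1. Of these 1 was higher, SUT1, and 0 were lower by limma (0 lower also at an unadjusted p under 0.05). UPC2, ARE2 and AUS1 were not among the 4 and so were not tested there. That filter gave 1893 calls among 2724 genes, because fewer genes were tested. The changes of the 3 paralog ratios kept their direction in 13 alternatives each. Centring on the median, the replicate block and the choice of probe sets cannot alter the change of a ratio, so only the other alternatives bear on it. The same filter left none of the 7 anaerobic genes, and 12, 12 and 4 of the sterol transfer, lipid droplet and regulator genes, of which 5, 6 and 2 were higher, and without PFA replicate 1, 2 lipid droplet genes were lower in place of 4. The titles number replicates 1 to 3 in both groups but do not say that equal numbers share a culture or day. The numbers were therefore not taken as pairs. Deviations from the group means correlated at -0.0456, -0.0898 and 0.156 for same-numbered arrays and at -0.105 to 0.164 for the others. With 3 arrays per group, these values cannot decide whether the numbers were pairs. With the replicate number as a block, 3366 genes were called in place of 3323, and 3 of the 9 genes rose and 1 fell. The block leaves the size of a change as it was, at 1.71 for UPC2 and 1.89, -1.49 and 0.26 for the paralog ratios.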
